A study of Mus musculus with 24 samples.

Results

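GABA and glycine are the neurotransmitters of fast inhibition in the brain, and the 28 genes described here encode the parts of their synapses. They were chosen by name and function, not by measured values: 11 subunits of the GABA-A receptor, both subunits of the GABA-B receptor, 4 subunits of the glycine receptor, the enzymes and carriers that make, load, take up and degrade GABA, scaffold and adhesion proteins of the inhibitory postsynapse, 2 chloride cotransporters and 2 genes that mark inhibitory interneurons. All 28 were found by their symbols among the 53465 genes in the deposited files, and all 28 had enough reads to be tested.

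Brain RNA of 12 mice was sequenced, and reads were counted per gene. Of these, 6 were CAST/EiJ (CAST), a wild-derived inbred strain of Mus musculus castaneus origin, and 6 were WSB/EiJ (WSB), a wild-derived inbred strain of Mus musculus domesticus origin. The study set the strains side by side because their infarcts differ in volume after occlusion of a cerebral artery. The labels give the tissue only as brain and name no age, sex, treatment or genetic change in either strain, so both groups are taken as they are labelled, and each animal is called here by its strain and label number.

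GABA is made from glutamate by glutamate decarboxylase, packed into vesicles by the transporter that Slc32a1 encodes, and released onto GABA-A receptors, which are chloride channels of 5 subunits, and onto GABA-B receptors, which act through G proteins. Glycine, the main fast inhibitory transmitter of the brainstem and spinal cord, opens chloride channels built of Glra subunits and the beta subunit from Glrb. Gephyrin, from Gphn, holds both kinds of channel at the postsynaptic membrane. Whether opening such a channel inhibits a neuron depends on its chloride gradient, which the importer NKCC1 (Slc12a2) and the exporter KCC2 (Slc12a5) set.

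Counts from both sequencing lanes of an animal were summed, giving 32982569 to 46513232 reads in genes per animal. Values below are CPM (read counts scaled to a common library size) after TMM scaling, which compare a gene between animals and not one gene with another, since they are not divided by gene length. The labels do not say how the brains were dissected, and summed markers of brain regions set several animals apart. Cerebellar granule and Purkinje markers summed to 1181 CPM in CAST_142, against 16.0 to 60.3 CPM in the other CAST animals and 15.0 to 48.2 CPM in WSB animals, with 1 of the 6 genes, Pcp2, at 0 throughout. Striatal projection neuron markers were lowest in CAST_142, at 335 CPM, against 835 to 1758 CPM in the other CAST animals and 1003 to 1653 CPM in WSB animals, with none of 7 genes at 0. Olfactory bulb markers reached 117 CPM in WSB_100, and the other 11 animals lay between 7.18 and 22.6 CPM, with none of 5 genes at 0. Results are therefore also given without CAST_142 and WSB_100. In bulk tissue, fewer cells of a type and less RNA per cell cannot be told apart. Pcp2, like Gfap, Hoxb5 and Hoxa5 of the lists below, has 0% of its exon bases outside other annotated genes. Reads shared with another gene cannot be assigned, so a count of 0 for these genes does not show absent expression.

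Few of these genes differed between the strains. Of the 28, 2 were called at a Benjamini-Hochberg adjusted (BH-adjusted) p under 0.05 in edgeR's quasi-likelihood test, or 7.14%, where 42.7% of all 18425 tested genes and 39.2% of tested protein-coding genes were called. Both were higher in CAST, as were 21.5% of all tested genes: Gabrb1, a GABA-A receptor beta subunit, and Glrb, the glycine receptor beta subunit. None was called lower by edgeR, where 21.2% of all tested genes were. In that fit 3 members had an unadjusted p under 0.05 and a lower mean in CAST (Gabra3, Glra3 and Gad1). DESeq2 called 2 members lower, and 4740 of the 30264 genes with any read, some of which it gave no adjusted p. With limma-voom 1 member was called lower, and 3899 of all 18425 genes. Over the 28 genes the median log2 fold change, CAST over WSB, was -0.0028, with 14 above and 14 below 0. The median size of the change regardless of sign was 0.16 on the log2 scale, against 0.22 over all tested genes and 0.18 over tested protein-coding genes. In none of the 28 did the CPM ranges of the 6 CAST and the 6 WSB animals stand apart, where they did so in 27.1% of tested genes.

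The count of calls depends on single animals. Without CAST_142 and WSB_100, 4 of the 28 were called, where 46.6% of 18511 tested genes were. Gabrb1 was still called higher in CAST, as were 23.0% of tested genes, and Gabra3, Gabrd and Gad1 were lower in CAST, as were 23.6%. Leaving out CAST_202 and WSB_120 as well, which stood apart in hypothalamic and hindbrain markers, gave 7 calls where 46.2% of 18667 tested genes were called. Of these 7, Gabrb1 and Glrb were higher in CAST (23.0% of tested genes) and Gabra3, Gabrd, Gabrg3, Gad1 and Glra3 lower (23.2%). With each animal left out in turn, between 0 and 5 members were called, where 39.4% to 46.9% of all tested genes were. None was called without CAST_201, CAST_203, WSB_135 or WSB_147, and 5 were without CAST_142.

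Of the 26 genes not called, 17 had a 95% interval of the fold change that lay inside 1.5-fold in either direction. These include both GABA-B receptor subunits, the chloride cotransporters, Gabrb2, Gad2, Slc32a1, Abat and Nlgn2. For the other 9 the interval reached past 1.5-fold, so these animals do not set its size to within that limit: Gabrg3, Gabre, Gabrq, Glra1, Glra2, Glra3, Gad1, Gphn and Pvalb. The intervals of Gad1 and Glra3 lay wholly below 0, and DESeq2 called both lower in CAST.

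**Figure D1:**
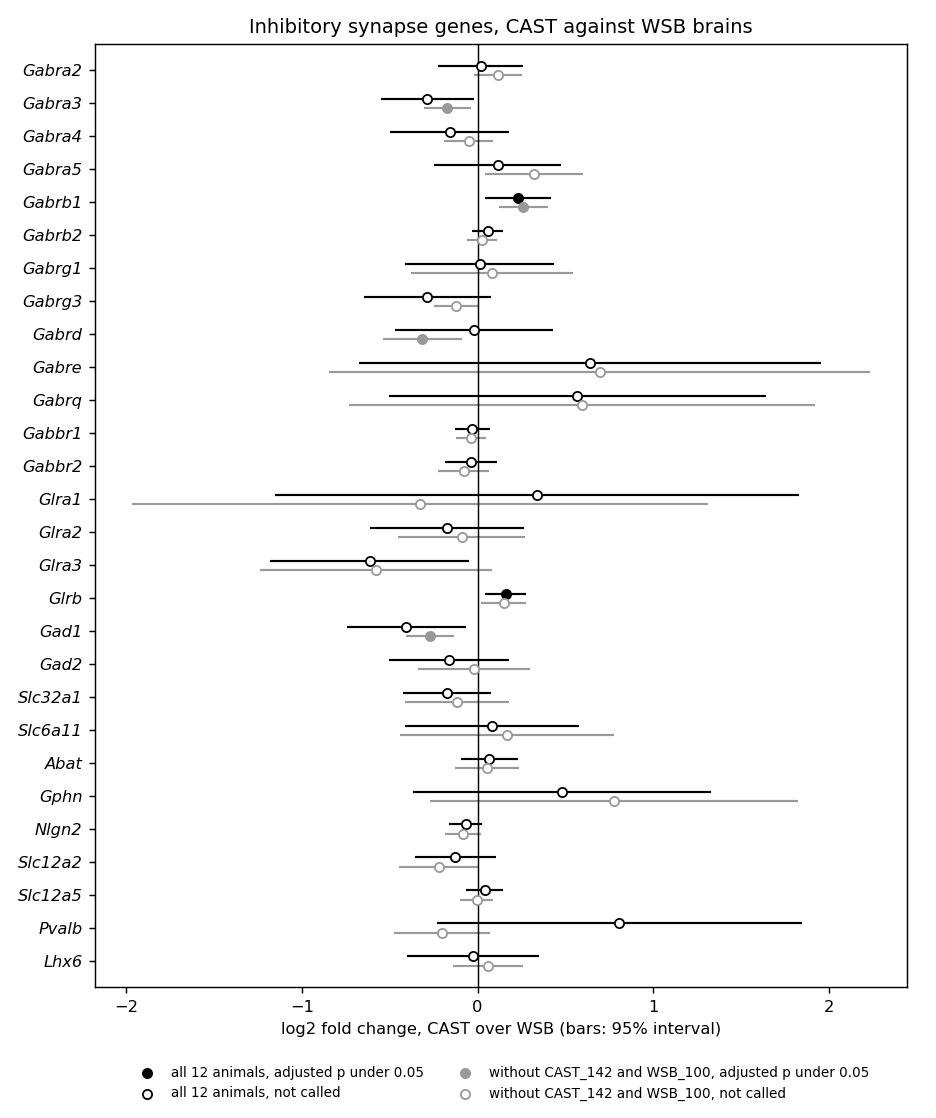
Log2 fold change of each of the 28 genes, CAST over WSB, with its 95% interval, over all 12 animals (black) and without CAST_142 and WSB_100 (grey); filled points are called by edgeR at an adjusted p under 0.05. Over all animals the filled points are Gabrb1 and Glrb, both right of 0, and without the 2 animals Gabrb1 is filled right of 0 and Gabra3, Gabrd and Gad1 left of it.

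Among the subunits of the GABA-A receptor, Gabrb1 was the gene called. It had 257 to 403 CPM in CAST animals (median 329) and 254 to 314 CPM in WSB animals (median 279). The ranges overlapped through CAST_142, the lowest CAST animal, since the other 5 had 316 CPM or more, above every WSB animal. The log2 fold change was 0.23 ± 0.088 (SE), or 1.17-fold (edgeR quasi-likelihood test, BH-adjusted p = 0.04996). This p lies at the threshold: leaving out any 1 of 10 of the 12 animals raised it to between 0.0598 and 0.103, and the exceptions were CAST_142 and WSB_138. Without CAST_142 and WSB_100 the log2 fold change was 0.26 (edgeR quasi-likelihood test, BH-adjusted p = 0.00535).

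Gabrb1 lies on chromosome 5 beside Gabra4, an alpha subunit, in a cluster with Gabra2 and Gabrg1. In GENCODE M21 coordinates (mouse genome GRCm38), Gabrb1 spans chr5:71658113-72149037 on the plus strand and Gabra4 chr5:71569749-71658308 on the minus strand. The pair lie head to head with their first 196 bases in common, so reads from that stretch cannot be assigned to either. By RefSeq the start sites are 388 bases apart, counting both. The windows of 300 bases around the starts, from 250 before to 50 after, are shown because one member of this pair was called and the other was not. Capitals mark GGGCGG or its reverse complement CCGCCC, the core of a GC box, which Sp1-family factors bind.
Gabrb1, chr5:71657671-71657970, plus strand: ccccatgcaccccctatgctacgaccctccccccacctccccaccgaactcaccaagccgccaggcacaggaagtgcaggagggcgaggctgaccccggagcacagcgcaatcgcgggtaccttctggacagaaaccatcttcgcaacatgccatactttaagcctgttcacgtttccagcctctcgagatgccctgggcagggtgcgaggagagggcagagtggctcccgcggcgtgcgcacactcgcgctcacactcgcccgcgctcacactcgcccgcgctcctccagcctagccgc
Gabra4, chr5:71658259-71658558, minus strand: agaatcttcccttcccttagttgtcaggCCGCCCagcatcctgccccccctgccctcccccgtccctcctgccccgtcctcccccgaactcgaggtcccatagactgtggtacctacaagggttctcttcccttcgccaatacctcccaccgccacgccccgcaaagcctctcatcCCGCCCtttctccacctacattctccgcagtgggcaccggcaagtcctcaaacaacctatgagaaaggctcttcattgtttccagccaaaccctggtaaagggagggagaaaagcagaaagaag

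The Gabrb1 window holds 66.0% G and C and no copy of the motif, and the Gabra4 window 58.7% and 2 copies. Such a match is a property of the letters and shows no binding. RefSeq (GRCm38.p6) gave a window for 24 of the 28 genes, and in the first window of each gene the motif was found in 17 of 24, against 35.9% of 27025 genes with a window. The median G and C content was 63.3% in the 24 windows and 52.7% in all. TATAAA, on either strand, was in 4 of the 24 and in 14.2% of all genes. TGACGTCA, the palindrome that CREB binds, was in none of the 24 and in 1.88% of all genes.

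Gabra4 was not called. It had 63.4 to 148 CPM in CAST animals (median 131) and 127 to 152 CPM in WSB animals (median 134), and the log2 fold change was -0.16, with an interval from -0.50 to 0.18 (edgeR quasi-likelihood test, BH-adjusted p = 0.451). CAST_142 was again the lowest, and the other 5 CAST animals lay within or just under the WSB range. Each library thus gives a ratio of counts of Gabrb1 over Gabra4, which does not depend on its scaling. On the log2 scale this ratio was 1.15 to 2.02 in CAST animals (median 1.37) and 0.90 to 1.11 in WSB animals (median 1.06), a difference of means of 0.43. The ranges did not overlap, and CAST_142 and CAST_202 had the highest ratios. The pair was picked after its values were seen, so no test is given.

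Gabra2 and Gabrg1 complete the chromosome 5 cluster, and neither differed between strains beyond the spread of the animals. Gabra2, an alpha subunit, had 116 to 201.3 CPM in CAST animals (median 182) and 156 to 199 CPM in WSB animals (median 173), with CAST_142 far below the rest. Gabrg1, a gamma subunit, had 21.8 to 47.7 CPM in CAST animals (median 34.3) and 21.7 to 42.2 CPM in WSB animals (median 34.5). Their log2 fold changes were 0.02 and 0.01 (edgeR quasi-likelihood test, BH-adjusted p = 0.91 and 0.966).

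Gabra3, an X-linked alpha subunit, was lower in CAST once the 2 animals with high regional markers were left out. It had 73.6 to 134 CPM in CAST animals (median 126) and 127 to 165 CPM in WSB animals (median 143), and the log2 fold change over all animals was -0.29 (edgeR quasi-likelihood test, BH-adjusted p = 0.0761). CAST_142 was the low value. Without CAST_142 and WSB_100 the change was smaller and its interval narrower, at -0.17 with an interval from -0.30 to -0.04 (edgeR quasi-likelihood test, BH-adjusted p = 0.0348). Even so, the highest remaining CAST animal, at 134 CPM, lay above the lowest WSB animal.

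Gabrd encodes the delta subunit, which is found in extrasynaptic receptors that carry tonic inhibition and is prominent in cerebellar granule cells. Over all animals its means were 57.2 ± 25.4 CPM over the CAST animals and 57.9 ± 2.58 CPM over the WSB animals (± SD, 6 animals each), with a log2 fold change of -0.02 (edgeR quasi-likelihood test, BH-adjusted p = 0.953). That mean hides a split: CAST_142 had 107 CPM, the other 5 CAST animals 33.6 to 51.7 CPM, and the WSB animals 54.6 to 61.8 CPM. Apart from CAST_142, every CAST animal was below every WSB animal. Without CAST_142 and WSB_100 the log2 fold change was -0.31, with an interval from -0.54 to -0.09 (edgeR quasi-likelihood test, BH-adjusted p = 0.0255). Without CAST_142, CAST_202, WSB_100 and WSB_120, a choice made after seeing the data, it was -0.19 (edgeR quasi-likelihood test, BH-adjusted p = 0.00147). Gabra6, the granule cell alpha subunit that pairs with delta and is no member here, had 333 CPM in CAST_142 and 0 to 11.5 CPM in the other animals. The part of cerebellar RNA in the CAST_142 value of Gabrd was not tested.

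**Figure D2:**
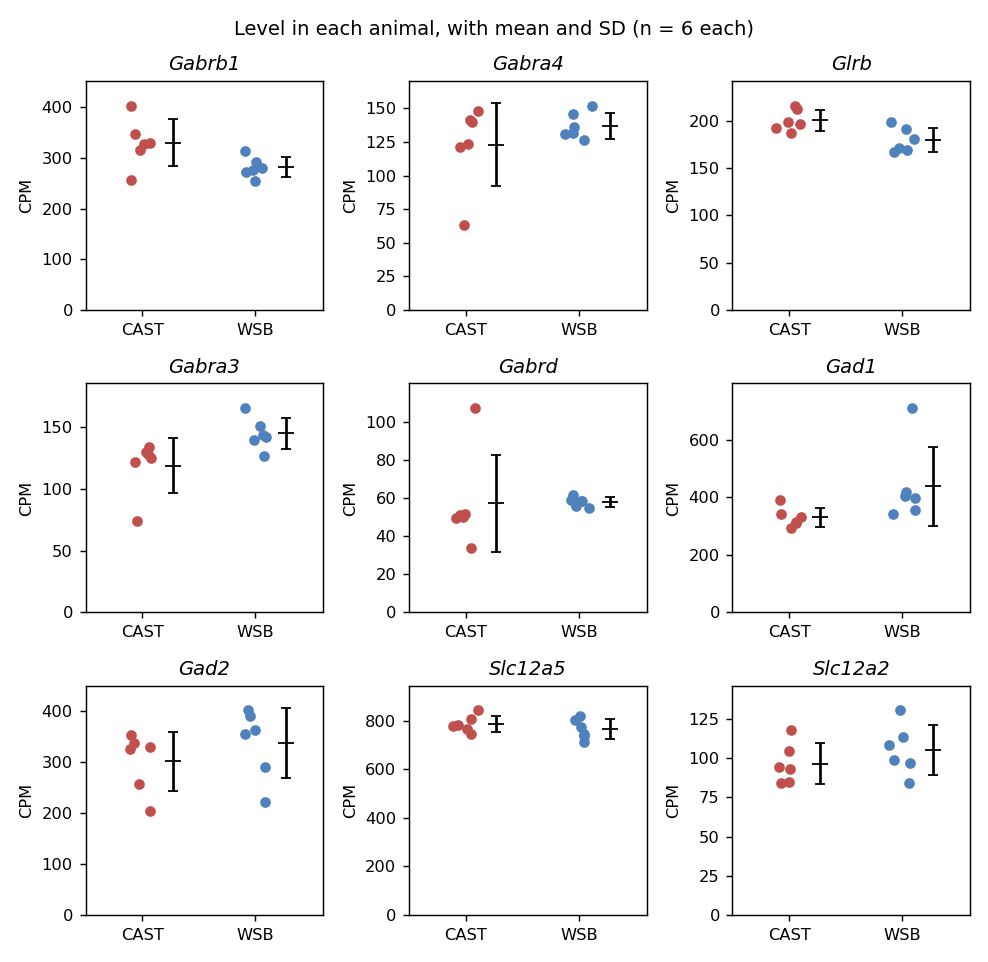
CPM of 9 genes in each animal, CAST (red) left of WSB (blue), with the mean and SD of 6 animals as bars beside the points. Gabrb1 and Glrb sit higher in CAST with overlapping ranges, 1 CAST animal stands apart in Gabra4, Gabra3 and Gabrd, and 1 WSB animal in Gad1.

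The remaining GABA-A subunits were not called. Gabrb2, a beta subunit, varied least of them, with 272 to 288 CPM in CAST animals (median 275) and 251 to 283 CPM in WSB animals (median 269). Gabrg3, a gamma subunit, had 43.3 CPM in CAST_142, 95.2 to 104 CPM in the other CAST animals and 94.8 to 119 CPM in WSB animals, and the log2 fold change was -0.29 (edgeR quasi-likelihood test, BH-adjusted p = 0.191). Gabra5, an alpha subunit typical of hippocampus, had 2.82 to 4.56 CPM in CAST animals (median 3.73) and 2.76 to 5.02 CPM in WSB animals (median 3.09), with overlapping ranges. Its counts are uncertain, since reads in stretches shared with other annotated genes cannot be assigned.

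Gabre and Gabrq, the epsilon and theta subunits, are rarer in the brain and are known from hypothalamic and brainstem nuclei. Gabre had 0.837 to 10.8 CPM in CAST animals (median 2.99) and 0.582 to 4.67 CPM in WSB animals (median 2.22). Gabrq had 3.75 to 23.2 CPM in CAST animals (median 9.33) and 2.1 to 12.02 CPM in WSB animals (median 6.79). Both were highest in CAST_202 and lowest in WSB_120. Over the 12 animals the highest value was 18.5 times the lowest for Gabre and 11.04 times for Gabrq. The log2 fold changes of 0.64 and 0.57 had intervals from -0.68 to 1.96 and from -0.51 to 1.64 (edgeR quasi-likelihood test, BH-adjusted p = 0.43 and 0.388), and without CAST_142, CAST_202, WSB_100 and WSB_120 both turned to below 0, at -0.25 and -0.07.

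The 7 hypothalamic markers, none at 0, summed to 93.4 CPM in CAST_202 and to 8.77 to 36.6 CPM in the other CAST animals, and to 8.50 to 74.1 CPM in WSB animals. The animals at the extremes of the sum, CAST_202 and WSB_120, were also those at the extremes of Gabre and Gabrq. The low end was nearly tied, with CAST_142 at 8.77 CPM and CAST_201 at 8.80 CPM. WSB_100 went the other way, with a sum of 32.7 CPM, of which Trh gave 24.9, beside 1.33 CPM of Gabre and 4.20 CPM of Gabrq. The part of hypothalamic RNA in the values of these genes was not tested. The 2 genes lie 550374 bases apart on the X chromosome, and their windows are shown because both genes were highest and lowest in the same animals.
Gabrq, chrX:72824928-72825227, plus strand: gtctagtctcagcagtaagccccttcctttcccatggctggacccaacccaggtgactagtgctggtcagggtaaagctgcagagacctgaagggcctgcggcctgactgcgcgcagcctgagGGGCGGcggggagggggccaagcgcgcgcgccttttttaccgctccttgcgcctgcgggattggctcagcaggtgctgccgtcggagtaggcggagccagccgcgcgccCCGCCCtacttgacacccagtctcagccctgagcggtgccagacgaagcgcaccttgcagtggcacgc
Gabre, chrX:72274672-72274971, minus strand: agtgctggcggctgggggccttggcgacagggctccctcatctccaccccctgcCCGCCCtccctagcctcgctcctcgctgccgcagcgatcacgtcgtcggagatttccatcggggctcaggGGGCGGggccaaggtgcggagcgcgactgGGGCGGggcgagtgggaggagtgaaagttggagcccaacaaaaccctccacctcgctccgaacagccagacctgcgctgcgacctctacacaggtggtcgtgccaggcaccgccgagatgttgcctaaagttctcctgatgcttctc

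Capitals again mark the GC box core, with 2 copies in the Gabrq window and 3 in the Gabre window. On the log2 scale the ratio of counts of Gabrq over Gabre was 1.10 to 2.15 in CAST animals and 1.36 to 1.83 in WSB animals. The ratio thus spanned a narrower range than either gene did. The pair was chosen after its values were seen and has no test.

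**Figure D3:**
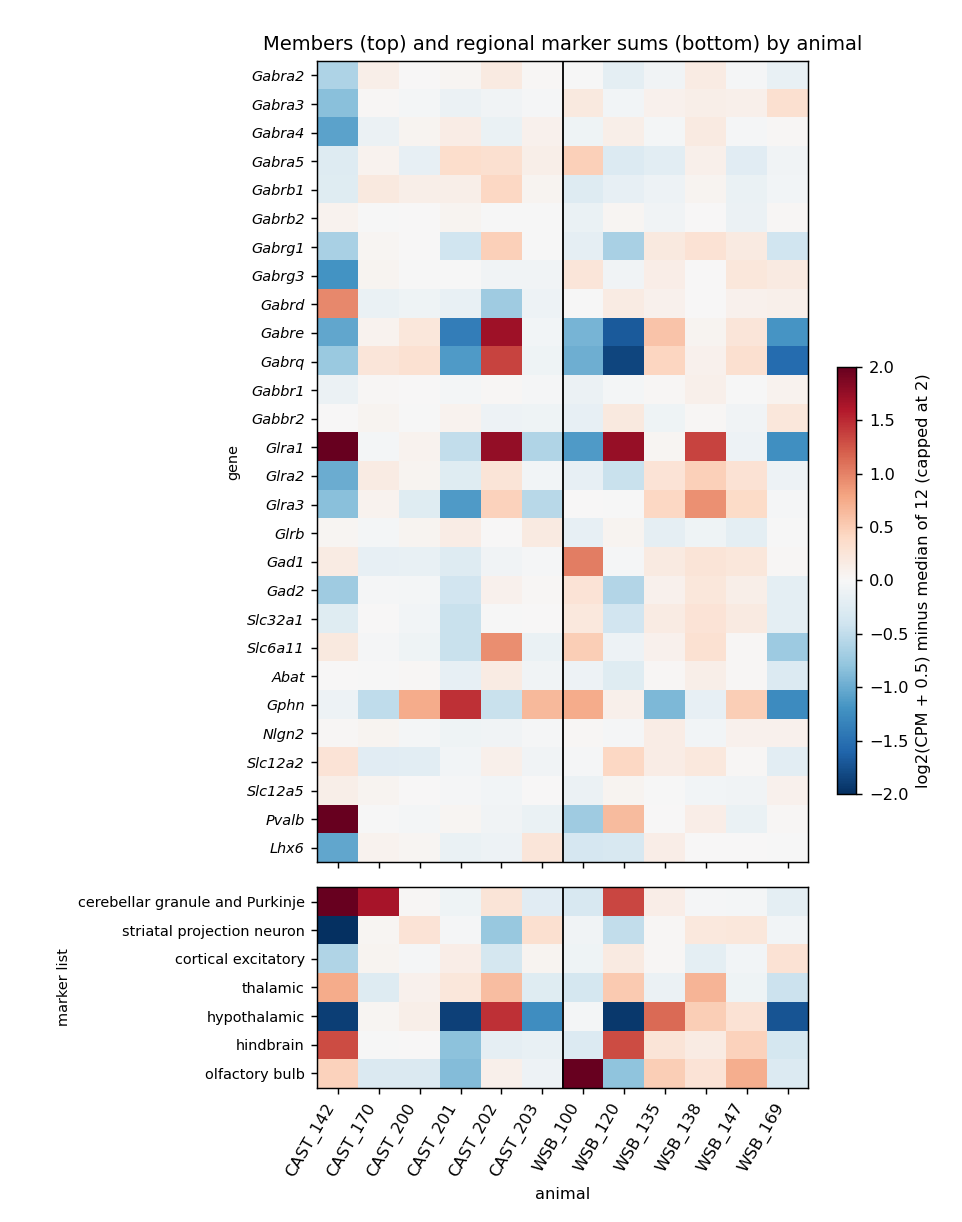
Each of the 28 genes (top) and the summed markers of 7 brain regions (bottom) in each animal, as log2(CPM + 0.5) minus the median of the 12 animals, capped at 2, with CAST left of WSB. CAST_142 stands out in cerebellar and striatal markers and in Gabrd and Pvalb, CAST_202 in hypothalamic markers and in Gabre and Gabrq, and WSB_100 in olfactory bulb markers and in Gad1.

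The GABA-B receptor is an obligate pair of Gabbr1, which binds GABA, and Gabbr2, which couples to the G protein. Gabbr1 had 826 to 909 CPM in CAST animals (median 887) and 827 to 959 CPM in WSB animals (median 899). Gabbr2 had 398 to 445 CPM in CAST animals (median 426) and 382 to 496 CPM in WSB animals (median 419). The ranges overlapped nearly in full, and the log2 fold changes were -0.03 and -0.04, with intervals from -0.13 to 0.07 and from -0.19 to 0.11. The log2 ratio of Gabbr1 over Gabbr2 counts averaged 1.06 ± 0.0935 over CAST and 1.06 ± 0.141 over WSB animals (± SD over 6 animals; exact permutation of strain labels, two-sided, p = 0.968, BH-adjusted p = 0.968 over 6 ratios).

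Among the glycine receptor subunits, Glrb was higher in CAST. It had 187 to 216 CPM in CAST animals (median 198) and 167 to 199 CPM in WSB animals (median 176). The ranges overlapped at their ends: WSB_120 had more than 3 of the CAST animals, and the other 5 WSB animals had 191 CPM or less. The log2 fold change was 0.16 ± 0.054 (SE), or 1.117-fold (edgeR quasi-likelihood test, BH-adjusted p = 0.0303). The call was lost without CAST_142 and WSB_100, where the log2 fold change was 0.15 (edgeR quasi-likelihood test, BH-adjusted p = 0.0549), and on leaving out any 1 of CAST_201, CAST_203, WSB_100, WSB_135, WSB_138 and WSB_147. Glrb lies on chromosome 3 with no other annotated gene across it, and its window, shown as that of the other called gene, holds 65.7% G and C and 2 copies of the GC box core.
Glrb, chr3:80913611-80913910, minus strand: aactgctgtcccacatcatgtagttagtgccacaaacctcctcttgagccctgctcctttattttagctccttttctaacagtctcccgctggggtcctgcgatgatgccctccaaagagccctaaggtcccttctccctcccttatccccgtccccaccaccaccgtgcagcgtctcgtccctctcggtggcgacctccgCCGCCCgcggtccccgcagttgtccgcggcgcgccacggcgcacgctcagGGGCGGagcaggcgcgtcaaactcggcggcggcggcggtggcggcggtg

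The alpha subunits of the glycine receptor were not called. Glra1, the adult form of brainstem and spinal cord, had 1.46 to 11.3 CPM in CAST animals (median 2.49) and 0.769 to 9.44 CPM in WSB animals (median 2.40). Both strains held high and low animals, with CAST_142, CAST_202, WSB_120 and WSB_138 far above the others. The 6 hindbrain markers, of which Hoxb5 and Hoxa5 were at 0, summed to 4.402 to 21.01 CPM in CAST animals and 6.32 to 21.1 CPM in WSB animals, with the highest sums in CAST_142 and WSB_120. These 2 sums came mostly from Slc6a5, the neuronal glycine transporter, at 19.3 CPM in CAST_142 and 16.1 CPM in WSB_120, while Chat, another gene of the list, was lowest of the 12 animals in CAST_142, at 1.15 CPM. CAST_202 and WSB_138, also high in Glra1, had sums of 7.17 and 9.26 CPM, within the range of the other animals. The 5 thalamic markers, none at 0, summed to 596 CPM in CAST_142, 545 in CAST_202, 511 in WSB_120 and 569 in WSB_138. In the other animals these sums were 265 to 416 CPM. The thalamic list was set beside Glra1 after the values were seen. The part of hindbrain or thalamic RNA in the values of Glra1 was not tested. Its log2 fold change was 0.34 over all animals and -0.33 without CAST_142 and WSB_100, with intervals from -1.15 to 1.83 and from -1.97 to 1.31.

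Glra2, the form that predominates in the embryo, had 10.4 to 25.5 CPM in CAST animals (median 21.3) and 15.6 to 29.7 CPM in WSB animals (median 22.8), and its ranges overlapped broadly. Glra3 had 7.67 to 24.3 CPM in CAST animals (median 13.2) and 17.2 to 33.5 CPM in WSB animals (median 20.4). In 4 of the CAST animals Glra3 was below every WSB animal, and CAST_170 and CAST_202 were not. The log2 fold change was -0.61, with an interval from -1.18 to -0.05 (edgeR quasi-likelihood test, BH-adjusted p = 0.0759). Without CAST_202 it was -0.82 (edgeR quasi-likelihood test, BH-adjusted p = 0.0145).

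GABA is made by 2 decarboxylases, GAD67 from Gad1, found through the neuron, and GAD65 from Gad2, concentrated at terminals. Gad1 had 292 to 390 CPM in CAST animals (median 325) and 342 to 711 CPM in WSB animals (median 401). The ranges overlapped at their ends, and WSB_100, at 711 CPM, was far above the other WSB animals, whose highest was 418 CPM. The log2 fold change was -0.41, with an interval from -0.74 to -0.07 (edgeR quasi-likelihood test, BH-adjusted p = 0.0519). It was -0.22 without WSB_100 (edgeR quasi-likelihood test, BH-adjusted p = 0.0388) and -0.27 without CAST_142 and WSB_100 (edgeR quasi-likelihood test, BH-adjusted p = 0.00358). WSB_100 was also the animal with the highest olfactory bulb markers, whose part in its Gad1 value was not tested. An antisense gene, Gad1os, overlaps Gad1, and 79.0% of the body of Gad1 lies outside other genes.

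Gad2 was not called. It had 202.5 to 353 CPM in CAST animals (median 327) and 221 to 400 CPM in WSB animals (median 358), with CAST_142 and WSB_120 low and WSB_100 high. The log2 fold change was -0.16 over all animals and -0.02 without CAST_142 and WSB_100. The log2 ratio of Gad1 over Gad2 counts was -0.08 to 0.94 in CAST animals (median -0.01) and 0.10 to 0.83 in WSB animals (median 0.23), and the difference of means was -0.20 (exact permutation, two-sided, p = 0.301, BH-adjusted p = 0.602 over 6 ratios). In CAST_142 this ratio was 0.94, and the other 5 CAST animals had 0.19 or less.

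**Figure D4:**
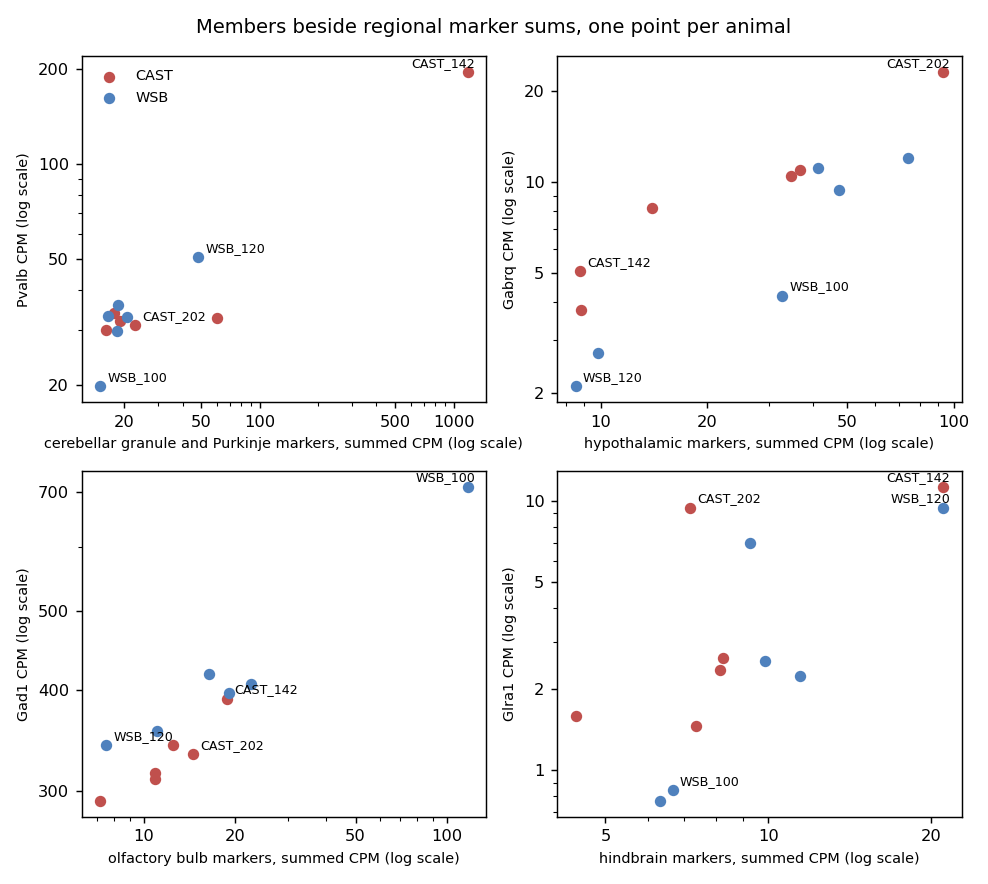
CPM of Pvalb, Gabrq, Gad1 and Glra1 in each animal against the summed CPM of the markers of 1 brain region, both on log axes, with CAST in red and WSB in blue. The highest Pvalb, Gabrq and Gad1 values belong to the animals with the highest cerebellar, hypothalamic and olfactory bulb sums, and CAST_142 and WSB_120 are high in both Glra1 and hindbrain markers, while CAST_202 and WSB_138 are high in Glra1 at ordinary hindbrain sums.

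The vesicular transporter gene Slc32a1, which loads both GABA and glycine, had 67.9 to 93.6 CPM in CAST animals (median 90.8) and 71.1 to 112 CPM in WSB animals (median 104). Its ranges overlapped and it was not called, with a log2 fold change of -0.17 (edgeR quasi-likelihood test, BH-adjusted p = 0.256). A share of 24.2% of its transcript 32-mers also occurs in transcripts of other genes, so part of its count is uncertain. Slc6a11, which encodes the GABA transporter GAT3 of astrocytes, had 149 to 389 CPM in CAST animals (median 196) and 124 to 288 CPM in WSB animals (median 211). CAST_202 held the highest value and stood well above the rest, while the strains otherwise overlapped, and the log2 fold change was 0.08 (edgeR quasi-likelihood test, BH-adjusted p = 0.805). Abat, the transaminase that degrades GABA, had 342 to 431 CPM in CAST animals (median 385) and 317 to 415 CPM in WSB animals (median 374), with nearly coinciding ranges and a log2 fold change of 0.07 (edgeR quasi-likelihood test, BH-adjusted p = 0.507).

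Gphn, which encodes gephyrin, varied more within each strain than between them. It had 966 to 3789 CPM in CAST animals (median 1717) and 576 to 2297 CPM in WSB animals (median 1354), and the log2 fold change was 0.48, with an interval from -0.37 to 1.33 (edgeR quasi-likelihood test, BH-adjusted p = 0.353). The highest of the 12 animals, CAST_201, had 6.58 times the Gphn of the lowest, WSB_169. Such a range of over 5-fold was seen in 5 of the 28 genes (Gabre, Glra1, Gabrq, Pvalb and Gphn) and in 13.0% of tested genes.

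Within each strain Gphn followed CT010467.1, a gene that GENCODE classes as ribosomal RNA. Over the 6 CAST animals Pearson's r was 0.99 and Spearman's rho was 0.94. Over the 6 WSB animals r was 0.94 and rho was 0.94. This relation was not among those planned, so no test is given. With the 2 animals most distant from the strain's median CT010467.1 level left out, Pearson's r was 0.97 in CAST and 0.998 in WSB. The part of ribosomal RNA reads in the count of Gphn was not tested, and the fold change of Gphn is given with that limit. The log2 ratio of Glrb over Gphn, from the receptor subunit that gephyrin binds, averaged -3.08 ± 0.714 over CAST and -2.78 ± 0.818 over WSB animals (± SD over 6 animals; exact permutation p = 0.504, BH-adjusted p = 0.605).

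**Figure D5:**
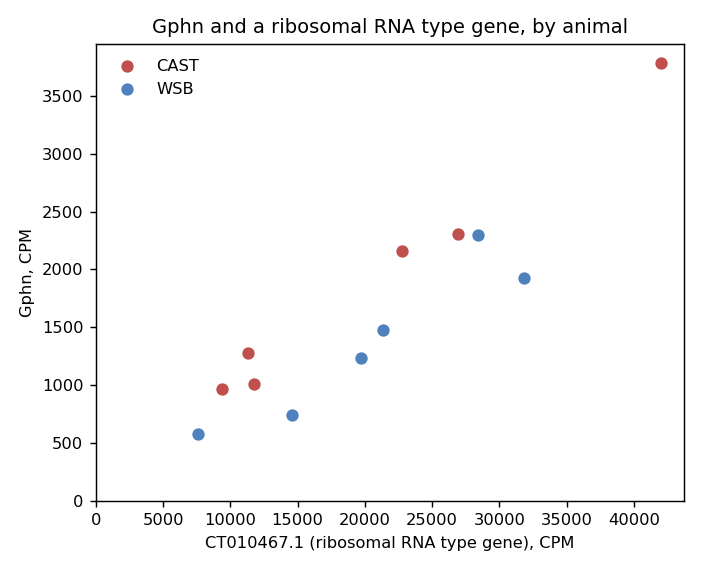
CPM of Gphn against CPM of the ribosomal RNA type gene CT010467.1 in each animal, CAST in red and WSB in blue, on linear axes from 0. In both strains the animals with more reads in CT010467.1 have more Gphn, with r of 0.99 in CAST and 0.94 in WSB.

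Nlgn2, the neuroligin of inhibitory synapses, varied little. It had 353 to 393 CPM in CAST animals (median 369) and 364 to 416 CPM in WSB animals (median 391). The ranges overlapped and the log2 fold change was -0.07, with an interval from -0.16 to 0.03 (edgeR quasi-likelihood test, BH-adjusted p = 0.235).

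The chloride cotransporters did not differ beyond the spread of the animals. Slc12a5 had 745 to 842 CPM in CAST animals (median 780) and 713 to 820 CPM in WSB animals (median 759). Slc12a2 had 83.9 to 118 CPM in CAST animals (median 93.7) and 84.04 to 130 CPM in WSB animals (median 104). The log2 fold changes were 0.04 and -0.13, with intervals from -0.06 to 0.14 and from -0.36 to 0.10 (edgeR quasi-likelihood test, BH-adjusted p = 0.532 and 0.37). The exporter to importer ratio, Slc12a5 over Slc12a2 counts on the log2 scale, averaged 3.04 ± 0.181 over CAST and 2.87 ± 0.228 over WSB animals (± SD over 6 animals; exact permutation p = 0.197, BH-adjusted p = 0.591 over 6 ratios). Neither this ratio nor the other 5 tested ratios passed the threshold; the smallest p the group sizes allow is 0.00216. The difference of means was 0.12 for Gabra5 over Gabra2 (exact permutation p = 0.413, BH-adjusted p = 0.605) and -0.35 for Gabrg3 over Gabrg1 (exact permutation p = 0.147, BH-adjusted p = 0.591).

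The interneuron genes were not called either. Pvalb, the calcium buffer parvalbumin of fast-spiking interneurons and also of cerebellar Purkinje cells, had 195 CPM in CAST_142, 29.8 to 33.7 CPM in the other CAST animals and 19.9 to 50.9 CPM in WSB animals. Without CAST_142 the strains overlapped fully, and the log2 fold change of 0.81 over all animals (edgeR quasi-likelihood test, BH-adjusted p = 0.199) was -0.20 without CAST_142 and WSB_100 (edgeR quasi-likelihood test, BH-adjusted p = 0.206). Lhx6, a transcription factor of interneurons from the medial ganglionic eminence, had 11.7 to 29.4 CPM in CAST animals (median 24.2) and 19.5 to 27.2 CPM in WSB animals (median 24.7). CAST_142 was lowest for Lhx6 and highest for Pvalb. Over the 28 genes, CAST_142 was the lowest of the 12 animals for 8 and the highest for 5, CAST_202 was the highest for 7, and WSB_100 was the highest for 4 and the lowest for 5.

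A wider list of 76 genes of inhibitory signalling gave more calls. Of its 69 tested genes, 16 (23.2%) were called by edgeR, 7 higher and 9 lower in CAST, against 42.7% of all tested genes. Without CAST_142 and WSB_100 the count was 20 (29.0%), against 46.6% of all tested genes in that fit. Glra4, Oxsr1, Dlx1 and Dlx6 were listed at 0 in every animal. Each has 0% of its exon bases outside other annotated genes, so a count of 0 does not show absent expression.

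Among 8 further subunits of GABA-A and GABA-C receptors, 6 were tested. Of these 1 (16.7%) was called lower, where 21.2% of all tested genes were: the rho subunit gene Gabrr2. It had 0.190 to 2.60 CPM in CAST animals (median 0.504) and 1.89 to 3.92 CPM in WSB animals (median 2.26), and CAST_142 was the CAST animal inside the WSB range. The log2 fold change was -1.46 (edgeR quasi-likelihood test, BH-adjusted p = 0.026), and -2.21 without CAST_142 and WSB_100. Of 7 GABA-B effectors 1 (14.3%) was called, against 42.7% of all tested genes. This was Kcnj5, a potassium channel subunit, which had 14.9 CPM in CAST_142. Its log2 fold change of 1.34 (edgeR quasi-likelihood test, BH-adjusted p = 0.0455) was 0.59 without CAST_142 and WSB_100 (edgeR quasi-likelihood test, BH-adjusted p = 0.234).

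In glycine handling, 2 of 6 tested genes rose, where 21.5% of all tested genes were called higher: Shmt1, a cytosolic serine hydroxymethyltransferase that forms and uses glycine, and Gldc, the decarboxylase of the glycine cleavage system. Shmt1 had 10.8 to 13.8 CPM in CAST animals (median 12.4) and 6.18 to 8.65 CPM in WSB animals (median 7.07), without overlap, at a log2 fold change of 0.78 (edgeR quasi-likelihood test, BH-adjusted p = 9.59e-06). Gldc changed by 0.33 on the log2 scale (edgeR quasi-likelihood test, BH-adjusted p = 0.0315), and its ranges overlapped.

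In GABA transport and metabolism 2 of 9 tested genes (22.2%) were called, against 42.7% of all tested genes. Glul, the glutamine synthetase of astrocytes, was higher in CAST. Maob, an amine oxidase that can form GABA from putrescine in astrocytes, was lower. Glul had 981 to 1108 CPM in CAST animals (median 1078) and 786 to 977 CPM in WSB animals (median 876), without overlap, and its log2 fold change was 0.27 (edgeR quasi-likelihood test, BH-adjusted p = 0.00196). Maob had 9.60 to 13.9 CPM in CAST animals (median 12.5) and 14.9 to 20.9 CPM in WSB animals (median 17.8), also without overlap, and its log2 fold change was -0.54 (edgeR quasi-likelihood test, BH-adjusted p = 0.000783). The summed level of 7 astrocyte markers, of which Gfap was at 0, was 3848 to 5286 CPM in CAST animals (median 4719) and 3841 to 4596 CPM in WSB animals (median 4079). Most of the sum was Slc1a2, which averaged 3654 CPM over the CAST animals and 3277 CPM over the WSB animals and was not called over all 12 animals. Of the 6 tested astrocyte markers 3 (50%) were called, against 42.7% of all tested genes, and not in one direction. Gja1 was higher in CAST, at a log2 fold change of 0.47, as was S100b, at 0.44, and Aldh1l1 was lower, at -0.28 (edgeR quasi-likelihood test, BH-adjusted p = 6.43e-05, 0.0428 and 0.00047). S100b had 31.3 CPM in CAST_142, 15.7 to 18.5 CPM in the other CAST animals and 12.2 to 18.1 CPM in WSB animals. Without CAST_142 and WSB_100, S100b lost its call, and Gja1, Slc1a2 and Aldh1l1 were called, where 46.6% of all tested genes were. The part of astrocyte RNA in the results for Glul and Maob was not tested.

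Of 14 partners at the postsynapse 3 (21.4%) were called, against 42.7% of all tested genes. Nlgn3, a neuroligin found at both excitatory and inhibitory synapses, had 39.4 to 54.0 CPM in CAST animals (median 52.9) and 58.8 to 66.1 CPM in WSB animals (median 63.3), without overlap, and fell by 0.32 on the log2 scale (edgeR quasi-likelihood test, BH-adjusted p = 0.00215). Gabarapl1, of the family of GABA-A receptor associated proteins that also act in autophagy, rose by 0.16 on the log2 scale (edgeR quasi-likelihood test, BH-adjusted p = 0.0128). Among chloride regulation partners 4 of 12 tested genes (33.3%) were called, against the same 42.7%. Slc12a9, a relative of the chloride cotransporters, had 26.1 to 27.8 CPM in CAST animals (median 26.9) and 32.5 to 36.9 CPM in WSB animals (median 34.6), without overlap, and its log2 fold change was -0.35 (edgeR quasi-likelihood test, BH-adjusted p = 8.53e-06). Wnk3, a kinase that regulates NKCC1 and KCC2, had a log2 fold change of 0.16 (edgeR quasi-likelihood test, BH-adjusted p = 0.0282), with overlapping ranges.

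Of 15 tested interneuron markers, 3 fell, the neuropeptide genes Npy, Sst and Cck. Their share of 20% is close to the 21.2% of all tested genes called lower. Npy had 20.9 to 40.5 CPM in CAST animals (median 39.5) and 43.5 to 66.2 CPM in WSB animals (median 55.2), without overlap, and a log2 fold change of -0.69 (edgeR quasi-likelihood test, BH-adjusted p = 0.00337). Sst had 67.3 to 124 CPM in CAST animals (median 109) and 116 to 149 CPM in WSB animals (median 141), with overlap, and a log2 fold change of -0.39 (edgeR quasi-likelihood test, BH-adjusted p = 0.0228). Npy and Sst kept their calls without CAST_142 and WSB_100, at log2 fold changes of -0.52 and -0.33 (edgeR quasi-likelihood test, BH-adjusted p = 0.00427 and 0.00109). Cck lost its call in that fit, at -0.32 (edgeR quasi-likelihood test, BH-adjusted p = 0.0768), and Htr3a, a serotonin receptor channel of interneurons, was called higher, at 0.63 (edgeR quasi-likelihood test, BH-adjusted p = 0.0191). Neither Pvalb nor Lhx6 was called in either fit.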

How the data were processed

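The authors deposited raw counts, unscaled integers for each gene, in a file for each of lanes 5 and 6 of each animal. Tools named in the submitters' processing notes are HTSeq, cutadapt, DESeq2 and TopHat2 2.1.1 (genome build, annotation and strand handling: not given in the sources used here). Counters that name no gene held 4.04% to 4.95% (no feature), 11.1% to 16.5% (ambiguous) and 15.6% to 17.5% (not unique) of alignments and were left out. The share that was not unique was 15.6% to 16.1% in CAST animals and 17.0% to 17.5% in WSB animals, without overlap. Alignment thus differed by strain, and its part in the fold changes was not tested. The lanes repeat 1 library and were summed: the chi-square of lane 5 against lane 6 over its degrees of freedom was 1.09 to 1.40.

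Identifiers were given symbols by GENCODE M21 (GRCm38), and sequences are from RefSeq (GRCm38.p6). The comparison of CAST with WSB used edgeR 4.0.16 (R 4.3.3; quasi-likelihood, robust, TMM, default filter by strain, Benjamini-Hochberg over all tested genes), tested first on simulated counts. Library ratios added 0.5 to each count. Animals are labelled as separate, and p-values judge the difference between strains against the spread between animals. DESeq2 1.42.0, limma-voom (limma 3.58.1), other scalings and filters, single lanes and leaving out animals were tried.

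The 28 genes, the wider list, the marker lists and the tests were chosen with earlier results of these data known. The text names every member and, of each role in the wider list, up to 2 called genes with the smallest p, with Cck and Htr3a added after their values were seen.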

Additional observations from a re-analysis of the deposited data

Results flagged for a closer look

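Within a strain, an animal stood apart from the other 5 in 11 of 72 groups of 6 values, by the gap to its nearest neighbour over the group's whole range (Dixon's 95% limit). Chance alone flags about 1 in 20 such groups, and 7 of the 11 fell on CAST_142, 3 on CAST_202 and 1 on WSB_100. In CAST_142, Gabra2 (116 CPM), Gabra3 (73.6 CPM), Gabra4 (63.4 CPM) and Gabrg3 (43.3 CPM) were far below the other CAST animals. In the same animal Gabrd (107 CPM), Pvalb (195 CPM) and the log2 ratio of Gad1 over Gad2 (0.94) were far above them. In CAST_202, Gabre (10.8 CPM), Gabrq (23.2 CPM) and Slc6a11 (389 CPM) stood above the other CAST animals. In WSB_100, Gad1 (711 CPM) stood above the other WSB animals.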

How the results depend on the processing

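Of the 28 members, 2 were called in the fit reported. The count was 1 with DESeq2's median-of-ratios factors in edgeR, with library size only, with a stricter filter, without robust dispersion and on lane 6 alone, 4 with DESeq2, 4 without CAST_142 and WSB_100, and 7 without CAST_142, CAST_202, WSB_100 and WSB_120, a choice made after seeing the data. Leaving out each animal gave 0 to 5, where 39.4% to 46.9% of all tested genes were called. DESeq2 called 31.6% of the 30264 genes with any read. These include genes to which it gave no adjusted p, at least 1 member among them, so the share among genes with an adjusted p is higher. Of all tested genes, the 5 settings with a count of 1 called 38.7% to 42.7%. Members called higher numbered 1 under those 5 settings, upper quartile scaling, limma-voom and without CAST_142 and WSB_100, and 0 to 2 with an animal left out. The share of all tested genes called higher in these settings ran from 3332 of 16952 (lane 6 alone) to 4254 of 18511 (without CAST_142 and WSB_100). With an animal left out it ran from 3704 of 18591 to 4274 of 18593. Members called lower numbered 1 with upper quartile scaling and with limma-voom, 2 with DESeq2, 3 without CAST_142 and WSB_100, 5 without the 4 animals, and 0 to 3 with an animal left out. Of all 18425 tested genes, 3880 were called lower with upper quartile scaling and 3899 with limma-voom. The share was 23.6% without CAST_142 and WSB_100 and 23.2% without the 4 animals. DESeq2 called 4740 of its 30264 genes lower. With an animal left out the share ran from 3594 of 18569 to 4452 of 18593. The median log2 fold change was -0.0787 without the 4 animals and -0.03 to 0.02 with 1 left out. In the wider list 12 to 20 genes were called over all settings, with 66 to 72 tested, where 30.0% to 46.9% of all tested genes were called.

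Signs turned for the following genes and ratios, none of which was called in the fit reported. On lane 6 alone Gabra2 was -0.0047 and the Gabbr1 to Gabbr2 ratio -0.0107. Without CAST_142 and WSB_100, Glra1 was -0.33, Slc12a5 -0.0034, Pvalb -0.20 and Lhx6 0.0584. Without the 4 animals, Gabra4 was 0.0034, Gabrg1 -0.17, Gabre -0.25, Gabrq -0.0707, Glra1 -0.61, Slc6a11 -0.13, Abat -0.0315, Pvalb -0.0419, Lhx6 0.0267, the Gabbr1 to Gabbr2 ratio -0.0448 and the Gabrg3 to Gabrg1 ratio 0.0097. With 1 animal left out the ranges crossing 0 were -0.0194 to 0.11 for Gabra2, -0.11 to 0.11 for Gabrg1, -0.30 to 0.10 for Gabrd, -0.0372 to 0.95 for Gabre, -0.077 to 0.0018 for Gabbr2, -0.12 to 0.85 for Glra1, -0.14 to 0.18 for Slc6a11, -0.088 to 0.96 for Pvalb, -0.11 to 0.11 for Lhx6 and -0.0413 to 0.0275 for the Gabbr1 to Gabbr2 ratio. The cause was not tested. No paired analysis was possible because the strains share no animal numbers.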
